A study of Homo sapiens with 12 samples.

Results

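Cytosolic ribosomal protein genes encode the proteins that, with the ribosomal RNAs, form the small and the large subunit of the ribosome in the cytoplasm. They were taken here as the rows of the expression table whose whole name is that of a small subunit (RPS) or large subunit (RPL or RPLP) gene and whose mean over the 6 libraries without doxorubicin was at least 1 FPKM (fragments per kilobase of transcript per M mapped fragments, where M is 1e6). This rule gave 45 genes of 57908 rows, 15 of the small and 30 of the large subunit. Of these, 41 are core ribosomal proteins and 4 are paralogues, relatives of a core gene with a similar product (RPL22L1, RPS27L, RPL7L1 and RPL26L1). The genes were thus chosen by their name and by their measured level without doxorubicin, so that level is given only as a description.

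The cells were HCT116, an established human colorectal carcinoma line. All cultures were transfected with a plasmid and divided after 24 h. GFP cells had a control plasmid, which the sample titles call GFP, the genotype label WT and the design text a vector. NSE4 cells had a plasmid for flag-tagged NSE4A, and SMC5 cells one for flag-tagged SMC5, both subunits of the SMC5/6 complex, which acts in DNA repair. Each culture then received PBS, the vehicle, or 1000 nM doxorubicin, a topoisomerase II poison, for 24 h, which makes 6 groups with 2 libraries each. The stated aim was to learn how the SMC5/6 complex limits growth and promotes doxorubicin-induced apoptosis. The proteins were supplied by plasmids, so every contrast between plasmids is one of overexpression.

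Estimated depth was 13.3 to 19.3 M fragments per library, and 23635 to 26187 loci were above 0. In SMC5 cells with doxorubicin, 1091 values above 0 were the same in both libraries, which occurred for 0 values in any other group. The difference between these libraries was less than sampling noise, and they were averaged to 1 sample. That group therefore has no SD, and 11 samples entered the analysis. NSMCE4A, the gene of NSE4A, was at 4069 to 6287 FPKM in NSE4 samples and 32.6 to 89.4 FPKM elsewhere, and SMC5 at 811 to 979 FPKM in SMC5 samples and 7.02 to 34.4 FPKM elsewhere. Of 5 colon epithelial markers with a row of their own 3 reached a mean of 1 FPKM, and their summed level was 1364 to 1531 FPKM with PBS and 1653 to 1889 FPKM with doxorubicin. Fibroblast markers (1 of 6 at a mean of 1 FPKM or more) summed to 18.0 to 25.6 FPKM with PBS and 16.1 to 27.9 FPKM with doxorubicin. Leukocyte markers (0 of 5) summed to less than 1 FPKM in every sample. Hepatocyte and neural markers (2 of 5) summed to 13.9 to 19.3 FPKM with PBS and 5.28 to 7.34 FPKM with doxorubicin, without overlap, and the part of this in the results was not tested.

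Ribosomal protein mRNAs are among the most abundant in growing cells. Most begin with a cytosine followed by a stretch of pyrimidines, the 5′ terminal oligopyrimidine or TOP motif. Through this motif the kinase mTOR and the RNA-binding protein LARP1 control their translation and stability as a group. Free RPL5 and RPL11, bound to the 5S ribosomal RNA, can bind the ubiquitin ligase MDM2 and so raise p53 when ribosome assembly is disturbed.

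The start sites show this shared sequence feature, which the choice of genes did not use. RefSeq (GRCh38.p14) gave a promoter entry for 39 of the 45 genes. Where a gene had several annotated starts, the start with the longest pyrimidine run was used, for these genes and all others alike. The windows shown here hold 15 bases before the annotated transcription start and the first 15 bases of exon 1, which are noncoding, and capitals mark the longest pyrimidine run that touches the 5 bases on either side of the start, where that run has at least 7 bases. They belong to genes that the results turn on: RPL34 (chr4:108620561-108620590, plus strand), RPS16 (chr19:39435935-39435964, minus strand), RPL11 (chr1:23691791-23691820, plus strand), RPS19 (chr19:41860240-41860269, plus strand), RPL22L1 (chr3:170870181-170870210, minus strand), RPS27 (chr1:153990747-153990776, plus strand), RPS27L (chr15:63157463-63157492, minus strand) and RPL7L1 (chr6:42879601-42879630, plus strand).
RPL34: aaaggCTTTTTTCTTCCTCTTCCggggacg
RPS16: gtggcccctagCTTTCCTTTTCCggttgcg
RPL11: cggaagctccgCTTTCTCTTCCTgctctcc
RPS19: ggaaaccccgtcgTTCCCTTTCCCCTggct
RPL22L1: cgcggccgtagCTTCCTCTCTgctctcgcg
RPS27: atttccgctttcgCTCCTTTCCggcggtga
RPS27L: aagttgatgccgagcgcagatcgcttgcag
RPL7L1: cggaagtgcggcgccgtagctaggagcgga
RPS27 has a run of 9 bases, and its paralogue RPS27L has a longest run of 2. A run of at least 7 bases was present in 31 of 39 genes (79.5%) and in 30 of the 35 core genes (85.7%), against 18.6% of all 27305 genes in the RefSeq table and 20.4% of those tested here. Among the 4 paralogues only RPL22L1 had one. At these same starts, chosen for their pyrimidine run, runs of purines of the same length were found in 2.56% of the 39 genes and 10.8% of all genes.

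With PBS, the lowest of the 45 genes by mean over the 6 libraries were RPL7L1 at 41.4, RPL26L1 at 52.0 and RPS27L at 135 FPKM. The highest were RPS27 at 13126, RPS21 at 8251 and RPL41 at 6457 FPKM. RPL41 encodes a very short, basic large subunit protein. Of the genes, 38 had a mean over 1000 FPKM with PBS and 25 with doxorubicin, and 28 were among the 100 loci of highest mean. Outside the threshold lay RPL10L and RPL39L, both listed at 0, RPL3L at 0.354 FPKM, and a small second row named RPS7 at 0.792 FPKM. No value of the 45 genes was 0 in any sample.

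Doxorubicin lowered most ribosomal protein mRNAs in GFP, NSE4 and SMC5 cells. In GFP cells 40 of 45 genes fell, 1 rose and 4 did not pass (limma, Benjamini-Hochberg adjusted over 15833 loci). Over all these loci 14.1% fell, 17% rose and 31.1% changed in either direction. In NSE4 cells the counts were also 40, 1 and 4 (13.9% of all loci fell, 16.3% rose and 30.2% changed). In SMC5 cells, with 1 sample on the doxorubicin side, 36 fell, 1 rose and 8 did not pass (9.87%, 11% and 20.9% of all loci). The median log2 difference of the 45 genes was −0.79, −0.75 and −0.80 in GFP, NSE4 and SMC5 cells, against 0.02, 0.03 and 0.02 over all loci. With quantile normalization these medians were −0.48, −0.37 and −0.40, and 28, 25 and 24 genes fell while 2 rose. For the 41 core genes the median left 56.4%, 56.4% and 57.3% of the PBS level. FPKM is relative to each library's fragments, so in these bulk samples fewer cells with a transcript and less of it per cell cannot be told apart, nor can a change in total RNA per cell be seen.

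**Figure D1:**
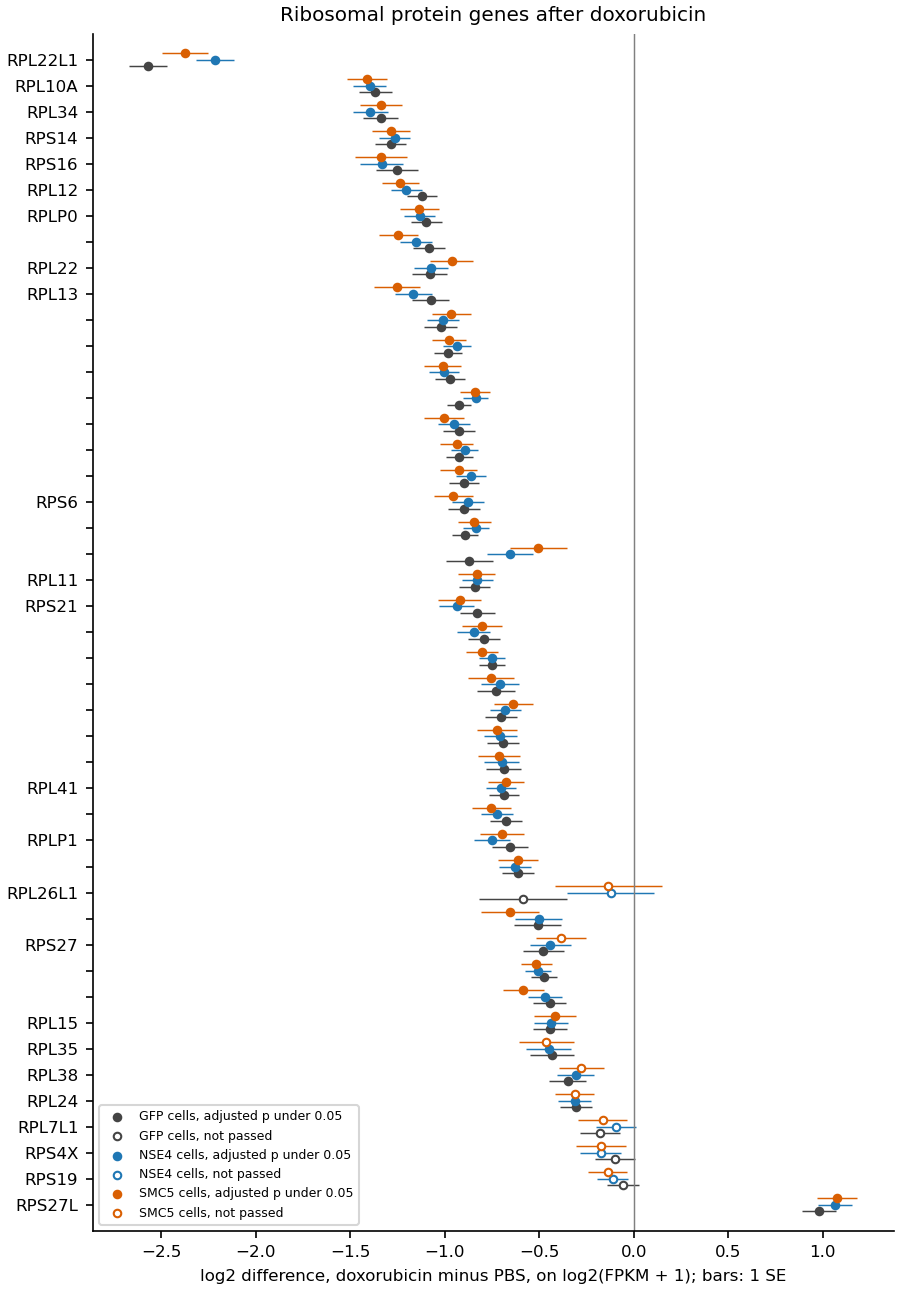
Log2 difference between doxorubicin and PBS on the log2(FPKM + 1) scale for the 45 ribosomal protein genes, with 1 SE, in GFP (grey), NSE4 (blue) and SMC5 (orange) cells; filled points passed at an adjusted p of 0.05 and open points did not. Genes with a label are those named by rule or in the text. Most points lie between −1.4 and −0.3, RPL22L1 lies furthest left, and at this scaling RPS27L is the only gene to the right of 0, whereas 40, 39 and 38 genes were left of 0 in GFP, NSE4 and SMC5 cells after quantile normalization and 41, 40 and 40 with totals without mitochondrial rows.

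The falls recurred gene by gene. The same 36 genes fell in all 3 kinds of cells, RPS27L rose in all 3, and RPS19, RPS4X, RPL7L1 and RPL26L1 passed in none. Across the 45 genes, the log2 difference in GFP cells correlated with that in NSE4 cells at Pearson r 0.977 and with that in SMC5 cells at r 0.973. These are correlations across genes, which share each library's depth and scaling and are not replicates, so no p is given. Over all samples, 40 genes had every doxorubicin value below every PBS value, 1 had every doxorubicin value above, and 4 overlapped. Of all loci 18.6% were separated downward and 22% upward in this way.

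**Figure D2:**
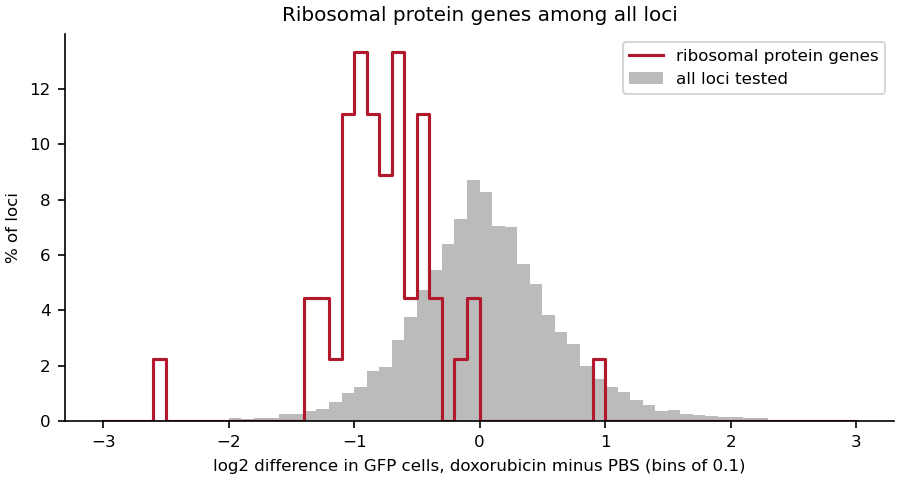
Share of loci (y axis, %) by log2 difference between doxorubicin and PBS in GFP cells (x axis, bins of 0.1) for the 45 ribosomal protein genes (red line) and for all 15833 loci tested (grey). The median is −0.79 for the ribosomal protein genes and 0.02 for all loci.

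Among large subunit genes, RPL10A and RPL34 fell furthest of the core genes in GFP cells. RPL10A encodes the protein of the L1 stalk, by which spent tRNAs leave the ribosome. It was at 1086 and 1111 FPKM in GFP, 1091 and 1216 FPKM in NSE4 and 1088 and 1151 FPKM in SMC5 cells with PBS. With doxorubicin it was at 408 and 443 FPKM in GFP, 422 and 452 FPKM in NSE4 and 419.9 FPKM in SMC5 cells. Every treated sample lay under 453 FPKM and every PBS sample above 1080 FPKM. The log2 difference was −1.37 in GFP cells (SE 0.09, limma adjusted p = 5.39e-05), −1.40 in NSE4 and −1.41 in SMC5 cells.

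RPL34, with the longest start-site run of the set at 18 bases, was at 2868 and 2871 FPKM in GFP, 3159 and 3172 FPKM in NSE4 and 3003 and 3124 FPKM in SMC5 cells with PBS. With doxorubicin the values were 1227 and 1049.7 FPKM, 1270.4 and 1144 FPKM, and 1212 FPKM. Its log2 differences were −1.34, −1.39 and −1.34 in the same order of cells. The groups did not overlap. RPL13, another large subunit protein, was at 3881 to 4908 FPKM with PBS and 1916 to 2025 FPKM with doxorubicin, with log2 differences of −1.07, −1.17 and −1.25.

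The stalk that recruits elongation factors to the large subunit is built from RPLP0, RPLP1 and RPLP2, with RPL12 at its base. All 4 of its genes fell in all 3 kinds of cells. Of all loci 14.1%, 13.9% and 9.87% fell in GFP, NSE4 and SMC5 cells. RPL12 was at 2956 to 3427 FPKM with PBS and 1348 to 1468 FPKM with doxorubicin, and its log2 differences were −1.12, −1.20 and −1.23. RPLP0 was at 2106 to 2374 FPKM with PBS and 989 to 1072 FPKM with doxorubicin, a log2 difference of −1.10 in GFP cells. The fall of RPLP1 was smaller, at −0.65, −0.75 and −0.70, and it did not pass after quantile normalization (adjusted p = 0.121, 0.0504 and 0.117). RPLP2, whose row also names the small nucleolar RNA SNORA52, fell by 0.67, 0.74 and 0.79 on the log2 scale. Of 9 genes listed for proteins around the exit of the nascent peptide tunnel, 8 fell in GFP cells (14.1% of all loci fell). The exception was RPL23A, in a row shared with small nucleolar RNAs (log2 difference −0.22, adjusted p = 0.0798).

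Both proteins of the 5S particle had lower mRNA after doxorubicin. RPL11 was at 1452 and 1611 FPKM in GFP, 1589 and 1661 FPKM in NSE4 and 1520.3 and 1643 FPKM in SMC5 cells with PBS. With doxorubicin it stood at 840.4 and 866 FPKM, 905 and 927 FPKM, and 888 FPKM. The highest treated sample was far below the lowest PBS sample. The log2 difference of RPL11 was −0.84, −0.83 and −0.83 (adjusted p = 2.63e-04 in GFP cells). RPL5 shares its row with SNORD21. That row was at 1028 to 1096 FPKM with PBS and 537 to 577 FPKM with doxorubicin, and fell by 0.92, 0.91 and 0.96 on the log2 scale.

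Among small subunit genes, RPS14 and RPS16 fell furthest in GFP cells. RPS16, whose tail reaches the tRNA in the peptidyl site, was at 2864 and 3364 FPKM in GFP, 3193 and 3512 FPKM in NSE4 and 3049 and 3479.9 FPKM in SMC5 cells with PBS. With doxorubicin the values were 1257 and 1349 FPKM, 1259 and 1401 FPKM, and 1289.5 FPKM. Its log2 differences were −1.25, −1.33 and −1.34, and the groups did not overlap. RPS14, a protein of the small subunit platform, was at 1099 to 1229 FPKM with PBS and 430.5 to 492 FPKM with doxorubicin, with log2 differences of −1.28, −1.26 and −1.28. RPS6, the small subunit protein that S6 kinase phosphorylates, was at 821 to 941 FPKM with PBS and 452 to 517 FPKM with doxorubicin, and fell by 0.90, 0.88 and 0.95 on the log2 scale. RPS21 was at 7593 to 9127 FPKM with PBS and 4129 to 4623 FPKM with doxorubicin.

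RPS19 and RPS4X did not pass in any kind of cell. They were singled out after their values were seen. RPS19, the small subunit gene most often mutated in Diamond-Blackfan anaemia, was at 2779 and 2975 FPKM in GFP, 2938 and 3223 FPKM in NSE4 and 2927 and 3224 FPKM in SMC5 cells with PBS. With doxorubicin it stood at 2829 and 2704 FPKM, 2812 and 2887 FPKM, and 2792 FPKM. The ranges overlapped, and the log2 differences were −0.06 (SE 0.08, adjusted p = 0.652), −0.11 and −0.14. RPS19 supplied 2.76 to 2.97% of the summed FPKM of the 45 genes with PBS and 4.35 to 4.54% with doxorubicin. RPS4X was at 655 to 745 FPKM with PBS and 577 to 705 FPKM with doxorubicin, with log2 differences of −0.10, −0.17 and −0.17. The direction of both depends on the scaling, since both were above 0 in all 3 kinds of cells with quantile normalization and with totals without mitochondrial rows. With quantile normalization RPS19 was higher with doxorubicin by 0.33, 0.51 and 0.59 on the log2 scale and passed (adjusted p = 0.00963, 0.00146 and 0.003). A pyrimidine run of 13 bases covers the RPS19 start site, and the longest run at that of RPS4X has 5 bases.

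RPS27, a zinc finger protein of the small subunit and the highest of the genes, was lower with doxorubicin by an amount that depends on the scaling. It was at 13103 and 11998 FPKM in GFP, 14282 and 13713 FPKM in NSE4 and 12948 and 12710 FPKM in SMC5 cells with PBS, and at 10018 and 8085 FPKM, 10796 and 9850 FPKM and 9830 FPKM with doxorubicin. No treated sample reached the lowest PBS sample. The log2 difference was −0.48 in GFP cells (SE 0.11, adjusted p = 0.0118), −0.44 in NSE4 cells (adjusted p = 0.0168) and −0.38 in SMC5 cells, where it did not pass (adjusted p = 0.0736). In GFP cells the call was lost without GFP replicate 1 (adjusted p = 0.0698) or doxorubicin-treated GFP replicate 2 (0.0649), and in NSE4 cells without NSE4 replicate 1 (0.077) or doxorubicin-treated NSE4 replicate 2 (0.104). Both calls also ended with quantile normalization (−0.07 in each, adjusted p = 0.414 and 0.417), with totals without mitochondrial rows (−0.28 and −0.23, 0.176 and 0.269) and with no filter (0.152 and 0.189), and the call in GFP cells ended with only the groups compared (0.0519). RPL24, RPL35 and RPL38, large subunit genes also named after their values were seen, fell by 0.30, 0.43 and 0.35 on the log2 scale in GFP cells (adjusted p = 0.0288, 0.0257 and 0.0281) and did not pass in SMC5 cells (0.0694, 0.0548 and 0.138). Their calls in GFP cells were lost without either GFP library or doxorubicin-treated GFP replicate 1 (adjusted p from 0.0522 to 0.143), and those of RPL24 and RPL35 also without doxorubicin-treated GFP replicate 2 (0.122 and 0.0601). With quantile normalization the 3 differences in GFP cells were 0.07, 0.05 and −0.04, and with totals without mitochondrial rows −0.11, −0.23 and −0.15 (adjusted p = 0.281, 0.0501 and 0.0939). None of the 3 passed in GFP cells with no filter (0.0713, 0.0951 and 0.0707) or no intensity trend (0.0707, 0.0509 and 0.0611), and RPL24 and RPL38 did not with only the groups compared (0.059 and 0.0662). In NSE4 cells the 3 genes fell by 0.31, 0.45 and 0.31 (limma adjusted p = 0.0273, 0.0224 and 0.0454). There too none passed with no filter (0.0681, 0.0864 and 0.102) or with only the groups compared (0.0951, 0.0553 and 0.0867). Their calls in NSE4 cells were also lost without NSE4 replicate 2 (differences −0.22, −0.31 and −0.25) or doxorubicin-treated NSE4 replicate 1 (−0.25, −0.37 and −0.24). Those of RPL24 and RPL38 were lost without doxorubicin-treated NSE4 replicate 2 as well (−0.38 and −0.37). The call of RPL38 in NSE4 cells also ended on leaving out either GFP or either SMC5 library with PBS.

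**Figure D3:**
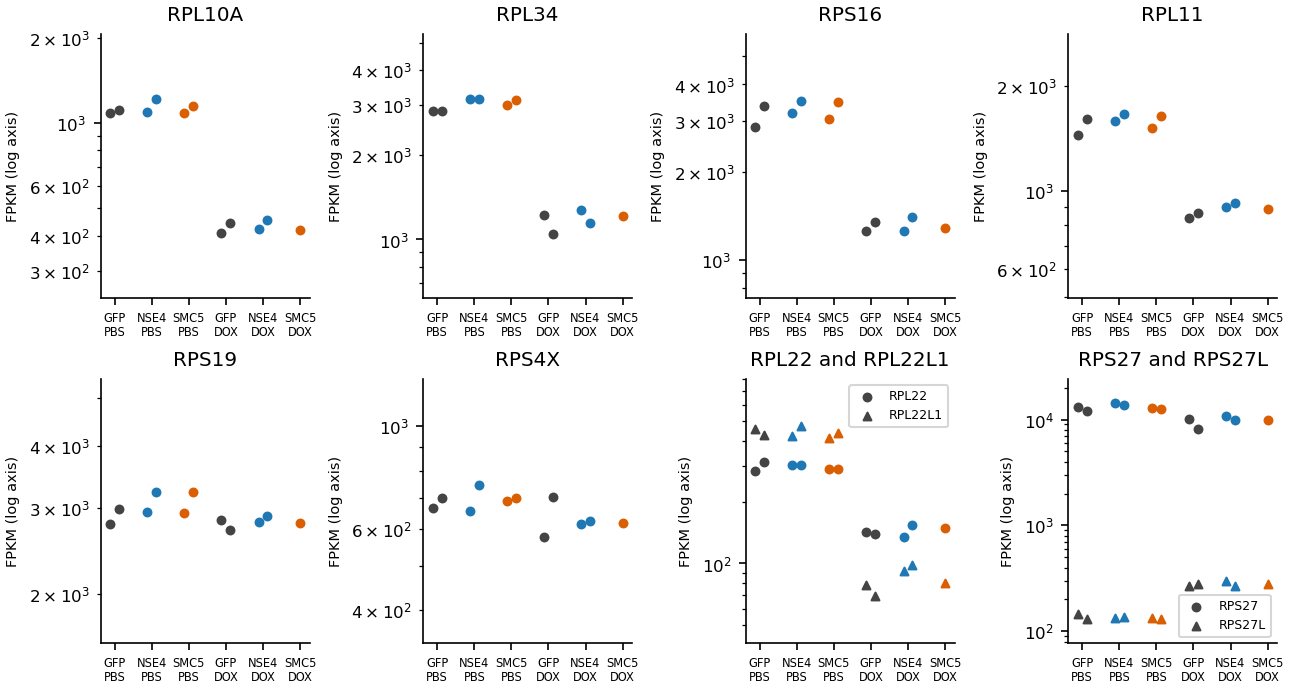
FPKM in each sample (log axis) of 8 genes or gene pairs, by plasmid and treatment; each point is 1 library, or the mean of the near-identical pair for SMC5 cells with doxorubicin. RPL10A, RPL34, RPS16 and RPL11 separate by treatment, RPS19 and RPS4X overlap, RPL22L1 falls below RPL22, and RPS27L rises while RPS27 does not.

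The 4 paralogues did not follow a common direction. RPL22L1, a relative of RPL22 that can replace it in the ribosome, fell further than any other of the 45 genes. It was at 456 and 426 FPKM in GFP, 419 and 472 FPKM in NSE4 and 411 and 434 FPKM in SMC5 cells with PBS. With doxorubicin it was at 78.1 and 69.0 FPKM in GFP, 92.0 and 98.1 FPKM in NSE4 and 80.6 FPKM in SMC5 cells. The log2 difference was −2.57 in GFP (SE 0.10, adjusted p = 1.14e-05), −2.21 in NSE4 and −2.38 in SMC5 cells. RPL22, an RNA-binding large subunit protein, went from 283 and 315 FPKM to 142 and 139.6 FPKM in GFP cells and fell by 1.08, 1.07 and 0.96 on the log2 scale. The ratio of RPL22 to RPL22L1 was thus 0.621 to 0.740 in the 6 PBS samples and 1.47 to 2.02 in the 5 doxorubicin samples.

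RPS27L, a relative of RPS27 known as a p53-inducible gene, was the only 1 of the 45 genes that rose, apart from RPS19 under quantile normalization. It was at 147 and 131 FPKM in GFP, 133 and 136 FPKM in NSE4 and 133 and 132 FPKM in SMC5 cells with PBS. With doxorubicin it was at 271 and 278 FPKM, 297 and 270.4 FPKM, and 280.4 FPKM. Every treated sample lay above every PBS sample. The log2 difference was 0.98 in GFP (SE 0.09, adjusted p = 1.99e-04), 1.07 in NSE4 and 1.08 in SMC5 cells. Its level was 0.933 to 1.12% of that of RPS27 with PBS and 2.70 to 3.44% with doxorubicin.

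RPL7L1 and RPL26L1, relatives of RPL7 and RPL26, did not pass in any kind of cell. RPL7L1 was at 39.2 to 43.9 FPKM with PBS and 34.6 to 40.3 FPKM with doxorubicin, and RPL26L1 at 40.8 to 68.5 and 36.9 to 53.4 FPKM. Both sets of ranges overlapped. With totals without mitochondrial rows RPL7L1 was above 0 in all 3 kinds of cells and RPL26L1 in NSE4 and SMC5 cells. RPL3L, the muscle-type relative of RPL3 below the threshold of the set, was at 0.227 to 0.523 FPKM with PBS and 1.02 to 2.98 FPKM with doxorubicin. It rose in GFP cells (log2 difference 1.15, adjusted p = 0.0181) and SMC5 cells (1.46, 0.0226), and in NSE4 cells its difference was 0.86 (0.0545). The call in GFP cells was lost without GFP replicate 1 (0.0698), GFP replicate 2 (0.0737) or doxorubicin-treated GFP replicate 2 (0.0792), and that in SMC5 cells without SMC5 replicate 1 (0.0794) or 2 (0.0626). With no filter neither passed (0.0508 and 0.0521). RPL36AL, in a row with other genes, fell by 0.31 on the log2 scale in GFP cells (adjusted p = 0.0235), a call lost when any 1 of the 4 GFP libraries was left out (0.0571 to 0.126), and with totals without mitochondrial rows the difference was −0.11 (0.245).

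Summed over the 45 genes, ribosomal protein mRNA was at 99416 to 112560 FPKM in the 6 PBS samples and 59758 to 65502 FPKM in the 5 doxorubicin samples. Mitochondrially encoded rows took 28.9 to 46.2% of the total FPKM with PBS and 34.9 to 45.5% with doxorubicin, and these ranges overlapped. Of the total without these rows, the 45 genes made up 14.3 to 15.01% with PBS and 9.48 to 10.8% with doxorubicin. The ratio of summed small to summed large subunit FPKM was 0.723 to 0.769 with PBS and 0.786 to 0.862 with doxorubicin, so these ranges did not overlap either. These sums weigh genes by level and cover only the 45 genes, so the ratio does not stand for each subunit as a whole. RPS19 and RPS27 each took a larger share with doxorubicin. For small subunit core genes the median log2 difference was −0.76, −0.79 and −0.82 in GFP, NSE4 and SMC5 cells. For large subunit core genes it was −0.84, −0.83 and −0.80. RPS27 alone supplied 11.5 to 13.4% of the summed level with PBS and 13.5 to 16.7% with doxorubicin. Among 113 other loci with a mean of at least 500 FPKM, 44 fell and 22 rose in GFP cells, with a median log2 difference of −0.16. Of all loci 14.1% fell and 17% rose in these cells.

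**Figure D4:**
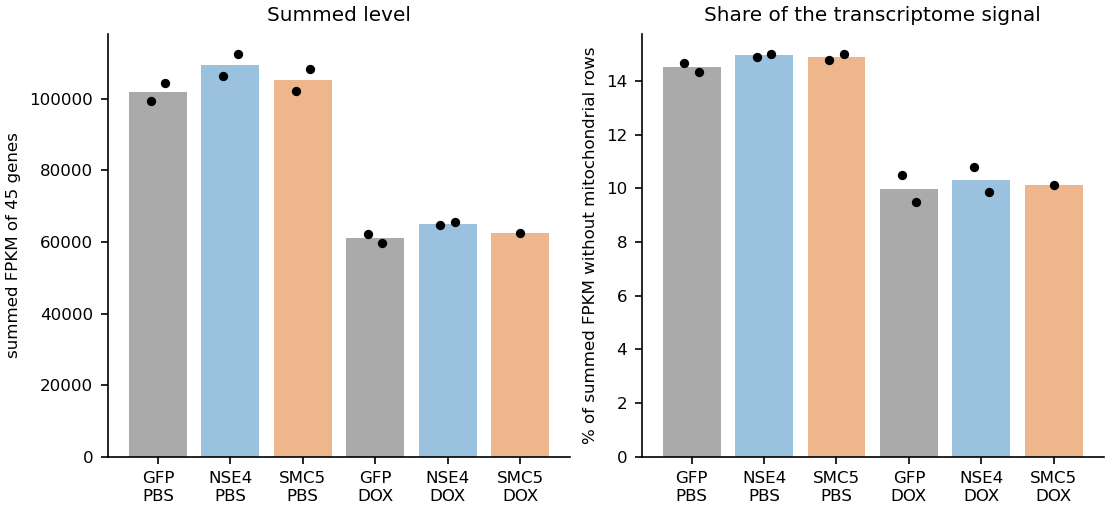
Left, summed FPKM of the 45 ribosomal protein genes, and right, their share (%) of the summed FPKM without mitochondrial rows, by plasmid and treatment; bars are group means and points are samples. With doxorubicin no sample exceeds 65502 FPKM or 10.8%, and with PBS none is under 99416 FPKM or 14.3%.

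No single gene of the 45 passed for an effect of the plasmids. Of the 45 genes 0 passed in NSE4 against GFP cells without doxorubicin (limma, 0.0442% of all loci called) and with it (0.0568%). Likewise 0 passed in SMC5 against GFP cells without doxorubicin (0%) and with it (0.0316%). At an unadjusted p under 0.05 there were 1, 1, 0 and 0 genes in these comparisons. Median log2 differences were 0.08 and 0.08 for NSE4 and 0.05 and 0.02 for SMC5, against 0.01, 0.01, 0.01 and 0 over all loci. Of the 45 genes 41 and 42 were above 0 for NSE4, and 37 and 32 for SMC5. The genes share each library's scaling, and a shift of the whole set was not tested. Under the alternatives the NSE4 median ranged from −0.05 to 0.128 without doxorubicin and from 0.022 to 0.099 with it. Single genes ranged from −0.23 to 0.37. The largest was RPL22L1 in NSE4 against GFP cells with doxorubicin, at 0.37 (SE 0.10, adjusted p = 1), with 92.0 and 98.1 against 78.1 and 69.0 FPKM.

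Whether doxorubicin acted differently on the genes in the overexpressing cells was tested by the interaction of plasmid and treatment. It called 0 of 45 genes for NSE4 (0.0316% of all loci called) and 0 for SMC5 (0.0189%), and 1 and 0 at an unadjusted p under 0.05. The median interaction was −0.01 for NSE4 and −0.03 for SMC5 on the log2 scale, with a median SE per gene of 0.12 and 0.14. With this SE, small differences of a single gene were not detectable. The lower count of falls in SMC5 cells was not accompanied by a smaller median.

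Rows that hold a core ribosomal protein gene together with other genes, often small nucleolar RNAs of its introns, lie outside the rule. There were 37 of them, of which 33, 33 and 34 fell and 0 rose in GFP, NSE4 and SMC5 cells, with medians of −0.65, −0.66 and −0.72. Of all loci 14.1%, 13.9% and 9.87% fell in these cells, and 17%, 16.3% and 11% rose. The row of RPL3, a protein near the peptidyl transferase centre, fell most in GFP cells, by 1.56 on the log2 scale. In these rows the share of each gene is not known. Among those that did not pass in GFP cells were the rows of RPS15 (log2 difference −0.11), RPL23A and FAU (0.19). Over rows of both kinds, 27 of 32 small subunit and 45 of 47 large subunit genes fell in GFP cells, where 14.1% of all loci fell. RPS27A, which encodes ubiquitin fused to a small subunit protein, fell by 1.01 on the log2 scale in a shared row.

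Of 10 genes mutated in Diamond-Blackfan anaemia, an inherited red cell aplasia of ribosomal protein haploinsufficiency, 8 fell in GFP cells (14.1% of all loci fell). RPS19 was among those that did not pass. Ribosomal protein pseudogenes are near copies that can share fragments with these genes. The name pattern used for them matched 926 rows, but it also took in RPLP0 and RPLP1. Most of the sum of these rows came from those genes. In GFP replicate 1 with PBS the sum was 4464 FPKM, with RPLP0 at 2106 and RPLP1 at 2172 FPKM. With doxorubicin it was 2598 FPKM in GFP replicate 1, with RPLP0 at 1004 and RPLP1 at 1423 FPKM. The level of the pseudogenes alone was therefore not measured. The sources used here do not say how fragments were divided between copies, so single genes with close pseudogenes are uncertain to an unknown extent.

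Other genes with TOP mRNAs moved the same way. Of 18 translation factors and related genes of this class, 16 fell and 0 rose in GFP cells (14.1% of all loci fell), with a median log2 difference of −0.73. EIF4B, a cofactor of the eIF4A helicase, was at 238 and 245 FPKM with PBS and 87.6 and 85.1 FPKM with doxorubicin in GFP cells, a log2 difference of −1.47 (adjusted p = 5.94e-05). EEF1A1, the factor that brings aminoacyl-tRNA to the ribosome, went from 4521 and 5024 FPKM to 1989 and 2071 FPKM (−1.23), and EIF3E, a subunit of initiation factor 3, from 369 and 342 FPKM to 174 and 165 FPKM (−1.07). RACK1, a scaffold on the small subunit, fell by 0.85 on the log2 scale in a shared row. EEF1D (−0.15) and NAP1L1 (−0.20) did not pass. In NSE4 cells 16 and in SMC5 cells 15 of the 18 fell (13.9% and 9.87% of all loci fell).

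Of 10 dedicated chaperones and importers of ribosomal proteins 2 fell, 1 rose and 7 did not pass in GFP cells, with a median of −0.07. These shares are near those over all loci, of which 14.1% fell and 17% rose. PDCD2, the chaperone of RPS2, was at 41.4 and 47.5 FPKM with PBS and 32.8 and 32.3 FPKM with doxorubicin (log2 difference −0.44, adjusted p = 0.0179), and its call was lost without GFP replicate 2 (0.112) or either treated GFP library (0.0604 and 0.0759). PDCD2L in a shared row (−0.60, 0.0176) lost its call without the same 3 libraries (0.103, 0.0587 and 0.0859). ZNF622, a factor of large subunit maturation, was at 19.7 and 21.8 and then 30.3 and 30.7 FPKM (0.53, 0.0285), a call lost on leaving out any 1 of these 4 GFP libraries (0.0693 to 0.135).

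Of 12 genes of the mTOR and LARP pathway 3 rose, 2 fell and 7 did not pass in GFP cells, with a median of −0.03, which again is near the 14.1% of all loci that fell and 17% that rose. EIF4EBP1 and EIF4EBP2, translation repressors that mTOR inactivates, went in opposite directions: EIF4EBP1 from 95.6 and 100.7 FPKM to 69.9 and 71.0 FPKM (log2 difference −0.47, adjusted p = 0.00692), and EIF4EBP2 from 16.0 and 14.8 FPKM to 22.1 and 22.0 FPKM (0.49, 0.00517). LARP1, the TOP-binding protein, was at 30.4 and 30.7 FPKM with PBS and 17.8 and 22.0 FPKM with doxorubicin (−0.60, 0.0132), but did not pass without GFP replicate 1 (0.058), GFP replicate 2 (0.0632) or treated GFP replicate 1 (0.0747). RPS6KB2, an S6 kinase in a shared row, had a log2 difference of 0.74 (0.00736), lost without GFP replicate 1 (0.0524) or treated GFP replicate 2 (0.0529). The activity of mTOR was not measured.

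Within the set, the size of the fall had little relation to the features examined. Across the 45 genes the log2 difference in GFP cells had a Pearson r of 0.104 with transcript GC content, 0.069 with transcript length and −0.201 with the level without doxorubicin. These are descriptions across genes that share libraries and scaling. With the length of the start-site run r was −0.289 over 39 genes and −0.08 over the 35 core genes. Of the 31 genes with a run of at least 7 bases, such as those shown for RPL34, RPS16 and RPL22L1, 30 fell in GFP cells, with a median of −0.83. RPS19 was the exception. Of the 5 core genes with a shorter run 4 fell, with a median of −0.75. This split depends on the annotated start and the window of 5 bases. RPL9 is scored with a run of 1, but a longer pyrimidine stretch begins just beyond that window. Among 1504 other tested genes with a run of at least 7 bases 20.8% fell and the median was −0.06, against 15.5% and 0.04 among 5987 with a shorter run. The motif CTTTCC, on either strand of the 300 bases around any annotated start of a gene, was present in 51.3% of the 39 genes. It was present in 30.2% of all genes and 32.6% of the 7707 tested genes of the RefSeq table. CCGGAAG, likewise on both strands, was present in 33.3%, 12.2% and 20.9%. CTTTCC is itself made of pyrimidines, so on the sense strand it can overlap the run.

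**Figure D5:**
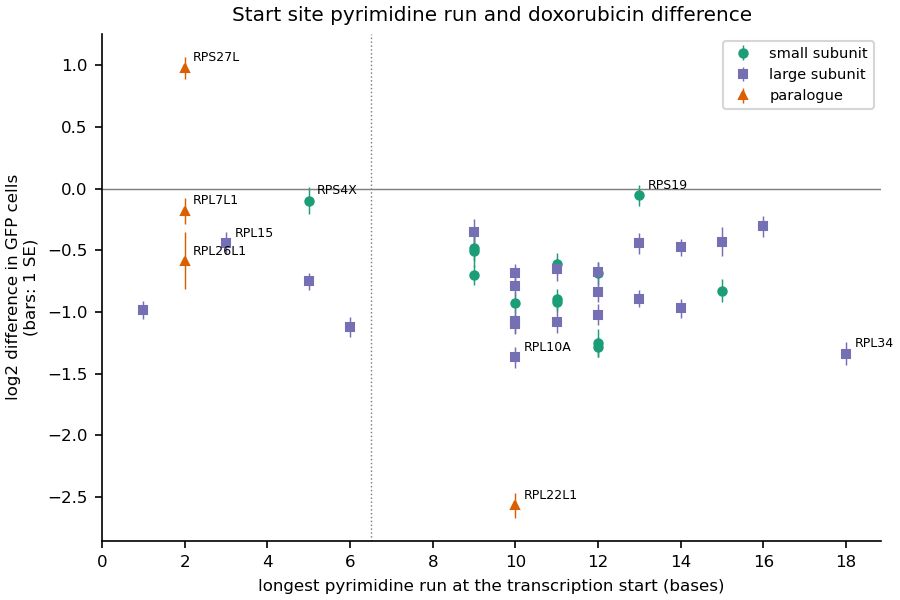
Longest pyrimidine run at the annotated transcription start (x axis, bases) against the log2 difference between doxorubicin and PBS in GFP cells with 1 SE (y axis) for the 39 genes with a RefSeq entry; circles are small subunit genes, squares large subunit genes and triangles paralogues, and the dotted line separates runs of at least 7 bases. Where a gene has several annotated starts, the start with the longest run is shown. RPL34 has the longest run at 18 bases, RPS19 has 13 bases and a difference near 0, and 3 of the 4 paralogues have a run of 2.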

How the data were processed

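Messenger RNA of 12 HCT116 libraries was measured. The authors deposited 1 table of FPKM values, made with TopHat and Cufflinks per the submitters' processing notes. Versions and the genome build are not given in the sources used here. All 12 columns were used, with the near-identical pair averaged. Values were tested as log2(FPKM + 1) with limma 3.58.1 in R 4.3.3: all 6 groups in 1 fit, intensity trend, 5 residual degrees of freedom, loci with at least 1 FPKM in at least 2 samples (15833), two-sided, Benjamini-Hochberg threshold 0.05 within each comparison. "Rose", "fell" and "passed" refer to it. Fold changes of low genes are understated on this scale. The script was tested on simulated data. Depth was estimated from single-fragment FPKM steps. Nothing states that libraries came from separate cultures, so p-values cover just the variation among these samples, which may be technical. Members and lists were chosen with earlier results of these data known. Named genes are the paralogues, RPL5, RPL11, RPS6, the 6 largest called changes in each direction, the 3 highest and 3 lowest levels, threshold neighbours, and up to 4 genes of smallest p per list. Others, such as RPLP0, RPLP1, RPL22 and RPL15, were named after values were seen. Some genes are not reported here. Alternatives were 3 scalings, another pseudocount, 2 filters, no trend, compared groups only, a replicate block, separate columns, GC adjustment, the set without paralogues and leaving out each library. A fit without treated SMC5 cells was chosen after seeing the data.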

Additional observations from a re-analysis of the deposited data

How the results depend on the processing

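The 45 genes' counts with doxorubicin stayed within 1.5 times of 41, 41 and 37 in GFP, NSE4 and SMC5 cells under every alternative run except quantile normalization in NSE4 cells, which called 27 (2 higher, 25 lower); the cause was not tested. Leaving out 1 library gave 35 to 41, 37 to 41 and 34 to 39 calls. Plasmid and interaction counts were 0 under every alternative. Median differences stayed below 0, from −0.86 to −0.48, −0.82 to −0.37 and −0.85 to −0.40. Quantile normalization reversed RPS19 (0.331, 0.505 and 0.585), RPL24 (0.073 in GFP, 0.148 in NSE4), RPL35 (0.048, 0.167), RPL38 (0.051 in NSE4) and RPL15 (0.029 in SMC5); of these only the RPS19 values passed. RPS4X in all 3 and RPL24, RPL35 and RPL38 in SMC5 cells, which had not passed before, were then also above 0. Totals without mitochondrial rows moved the median of all loci to 0.191, 0.21 and 0.18, and that of the genes to −0.592, −0.536 and −0.608, with 36, 37 and 35 calls; RPS19, RPS4X and RPL7L1 were then above 0 in all 3, and RPL26L1 in NSE4 and SMC5 cells. A replicate block called 41 genes in each of the 3, in SMC5 cells also RPS27, RPL24, RPL35 and RPL38 (adjusted p = 0.0105, 0.0392, 0.00641 and 0.0334). The labels do not say whether libraries with the same replicate number were handled together. Replicate differences of pairs of groups correlated at −0.039 to 0.073 across loci and −0.386 to 0.703 across the 45 genes. Yet replicate 1 had the higher mitochondrial share and the higher small to large subunit ratio in every group with 2 samples. In GFP cells that share was 35.3 and 28.9% with PBS and 39.95 and 34.9% with doxorubicin. A shared batch was not tested, and the main fit, unlike the replicate block, has no term for it. With 1 sample, treated SMC5 cells add nothing to that block. Depth limits low genes such as RPL3L, whose lowest value was 0.227 FPKM.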
